A study of Mus musculus with 4 samples.

Results

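The granins and the enzymes that cut, trim and amidate prohormones were examined as a set of 9 genes, Chga, Chgb, Scg2, Scg3, Scg5, Pcsk1, Pcsk2, Cpe and Pam, chosen by name among the 33565 genes listed in each count matrix. All 9 were found once in the matrices by symbol. CapSeq is a split-pool single-cell RNA sequencing method in which the BC1 barcode records the plate position of a cell. The experiment was performed on 3 mouse cell lines. N2a (Neuro-2a) is a neuroblastoma line, NIH/3T3 is an embryonic fibroblast line, and the mouse embryonic stem cells (mESCs) were of the line E14TG2a; each line filled 4 neighbouring columns of the BC1 plate. N2a and NIH/3T3 cells were grown in DMEM with fetal bovine serum, and mESCs on gelatin with serum, leukemia inhibitory factor and the inhibitors CHIR99021 and PD0325901. Each line is an established culture measured in 1 library, and lines were therefore not tested against each other. The 95% intervals given below (exact Poisson for levels, exact binomial for shares) cover counting error only.

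Granins are acidic proteins that are packed together with hormones and neuropeptides into dense-core granules, the vesicles of the regulated secretory pathway in neurons and endocrine cells. In these granules the prohormone convertases PC1/3 and PC2 cut peptide precursors at pairs of basic residues, carboxypeptidase E removes the basic residues left at the cut end, and peptidylglycine alpha-amidating monooxygenase amidates peptides that end in glycine. Chromogranins and secretogranins are widely used as markers of neuroendocrine cells and of tumors of the sympathoadrenal lineage, from which neuroblastoma arises.

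Cells with 1000 UMIs or more, of which mitochondrial transcripts made up no more than 20%, were kept, which left 2323 N2a, 2037 NIH/3T3 and 2137 mESC cells with medians of 6185, 4863 and 4803 UMIs. Each line held 32 BC1 sequences. The 3 lines shared 0 barcodes, but lines were split by BC1, which is part of the barcode. This count was thus fixed by the design and does not measure carry-over between lines. Levels are given in CPM (counts per 1000000), the UMIs of a gene scaled to the UMIs summed over the cells of a line. UMIs of the 9 N2a marker genes summed to 606.6 CPM in their own line, against 16.1 CPM in mESCs and 6.15 CPM in NIH/3T3, but Th and Dbh, enzymes of catecholamine synthesis, had only 4.96 and 0.891 CPM in N2a. The 8 NIH/3T3 markers summed to 1795 CPM in NIH/3T3, 465.4 CPM in N2a and 291.4 CPM in mESCs, and in the latter lines nearly all of it was Cald1. The 8 mESC markers summed to 4828 CPM in mESCs, with at most 144.4 CPM elsewhere, and Postn and Sox2, listed for NIH/3T3 and mESCs, had 0 UMIs in all lines.

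The stretches directly before the transcription starts of 6 of these genes are shown because they carry the core of the cyclic AMP response element, a binding motif of CREB family factors. Start-site windows were taken from RefSeq (build GRCm38.p6), where 8 of the 9 genes had one and Cpe was not matched. Each line gives the 100 bases before the start, read 5′ to 3′ on the strand of the gene, with TGACG or its reverse complement CGTCA in capitals.
Chgb, chr2:132781542-132781641, plus strand: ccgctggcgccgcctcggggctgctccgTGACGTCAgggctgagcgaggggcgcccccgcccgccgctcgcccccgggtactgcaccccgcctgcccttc
Scg2, chr1:79440027-79440126, minus strand: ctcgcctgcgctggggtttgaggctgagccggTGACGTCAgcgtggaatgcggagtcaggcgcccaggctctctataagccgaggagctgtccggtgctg
Pcsk1, chr13:75089757-75089856, plus strand: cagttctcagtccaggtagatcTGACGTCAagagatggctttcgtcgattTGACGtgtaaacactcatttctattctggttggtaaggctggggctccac
Chga, chr12:102554841-102554940, plus strand: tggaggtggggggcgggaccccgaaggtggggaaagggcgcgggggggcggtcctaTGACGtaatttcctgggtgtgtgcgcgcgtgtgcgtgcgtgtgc
Scg3, chr9:75684057-75684156, minus strand: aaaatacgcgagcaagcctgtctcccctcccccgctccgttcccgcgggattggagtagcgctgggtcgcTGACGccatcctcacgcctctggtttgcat
Pcsk2, chr2:143546033-143546132, plus strand: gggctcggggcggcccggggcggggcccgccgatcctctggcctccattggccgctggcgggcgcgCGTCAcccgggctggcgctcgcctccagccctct
The full palindrome TGACGTCA, which holds both TGACG and CGTCA, began at position -72 in Chgb, -68 in Scg2 and -78 in Pcsk1, counted from the base before the start as -1. In all, 3 of the 8 matched genes held it within the window of 250 bases before to 50 bases after the start, against 1.79% of 32851 RefSeq windows of the same length. The 5-base core TGACG on either strand was found for 7 of the 8, against 20.8% of all windows, and Pam was without it in both of its windows. In Scg5 the core lay at -175 and after the start, outside the stretches shown. A match describes letters only, and the CPM of the 3 genes with the palindrome in N2a ran from 317.5 for Chgb to 0.0557 for Pcsk1.

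The comparison of lines asks in which of them the regulated secretory pathway genes are transcribed. The 4 granins Chga, Chgb, Scg2 and Scg3 and the chaperone gene Scg5 were found in N2a at 30.7 to 317.5 CPM and were at least 4-fold above both other lines. Cpe and Pam, the enzymes that act after the convertases, were highest in NIH/3T3, and the convertase genes Pcsk1 and Pcsk2 were at most 4.62 CPM in any line. A gene was counted as past the fold when CPM + 1 of a line was at least 4 times that of the higher of the other lines, over the 15213 genes with a mean of at least 1 CPM over the lines, which included all 9. In N2a, 5 of the 9 were past it, where 5.46% of all genes tested were. For NIH/3T3 it was 1 of 9 (Pam), against 4.79% of all genes, and for mESCs 1 of 9 (Pcsk1), against 7.63%. In N2a 0 of the 9 were at least 4-fold below both other lines, where 2.91% of all genes were. The median log2 ratio of N2a to the higher other line was 3.60 for the 9 genes and -0.38 for all genes tested.

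**Figure D1:**
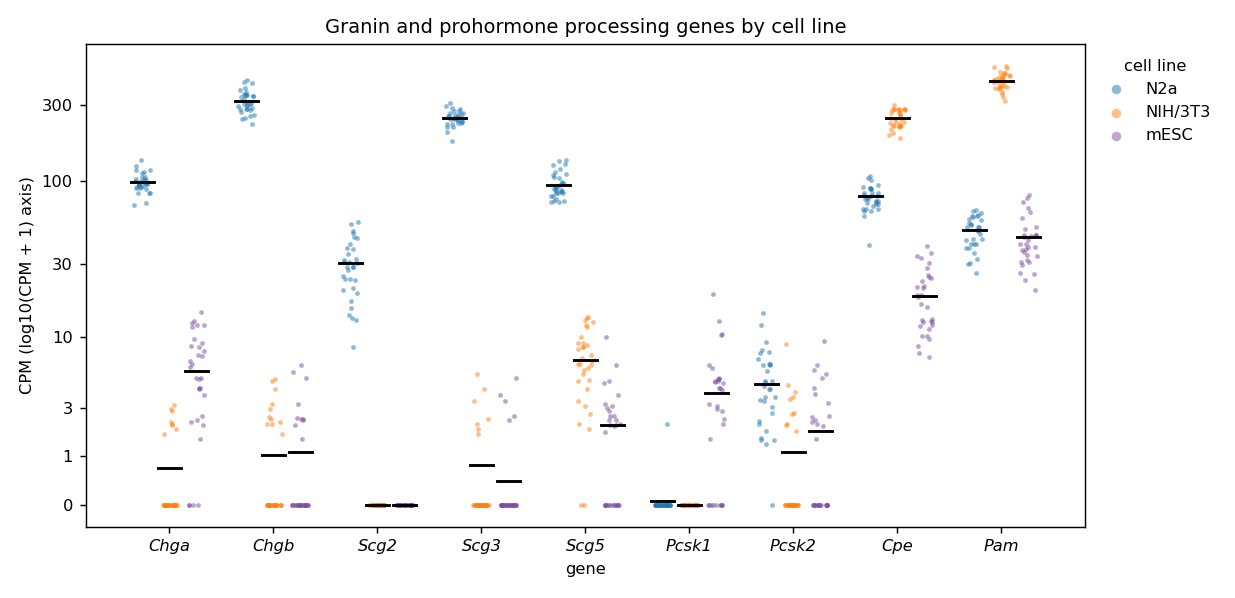
CPM of each gene on a log10(CPM + 1) axis, with 1 point for each of the 32 BC1 sequences of a line and a black bar at the level of the whole line. The points of N2a lie above those of both other lines for Chga, Chgb, Scg2, Scg3 and Scg5, and the points of NIH/3T3 lie above the others for Cpe and Pam.

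Chromogranin B (Chgb, ENSMUSG00000027350, GRCm39 chromosome 2, 132622464 to 132637904) is a core protein of the granule matrix. It had 5700 UMIs in N2a, or 317.5 CPM (309.3 to 325.8), 12 UMIs in NIH/3T3, or 1.03 CPM (0.530 to 1.79), and 14 UMIs in mESCs, or 1.14 CPM (0.621 to 1.91). Over the 32 BC1 sequences of N2a its level ran from 227.0 to 426.9 CPM with a median of 304.4, and the highest BC1 sequence of the other lines reached 6.34 CPM. N2a was therefore apart from both other lines at every BC1 sequence, whereas the intervals of NIH/3T3 and mESCs overlapped. The level in N2a was 309.5 times that in NIH/3T3 and 279.4 times that in mESCs. These ratios rest on 12 and 14 UMIs, and carry-over of UMIs between lines was not tested. They are ratios of counts and may differ from those of expression. Low counts among NIH/3T3 cells were also found for N2a markers, with 13 UMIs of Hand2 (7258 in N2a). Phox2a had 4 (2259 in N2a), Isl1 had 0 (493) and Gata2 had 49 (693). BC1 sequences mark wells of 1 library and are not replicates.

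Secretogranin III (Scg3, ENSMUSG00000032181, chromosome 9, 75546929 to 75591396), which binds chromogranin A at the granule membrane, had 247.5 CPM in N2a (240.3 to 254.9). It had 0.769 CPM in NIH/3T3 (0.352 to 1.46) and 0.406 CPM in mESCs (0.132 to 0.947), from 9 and 5 UMIs. Across BC1 sequences of N2a it lay between 179.5 and 305.5 CPM, with a median of 248.6, and at no BC1 sequence of another line was it above 5.43 CPM. Its intervals in NIH/3T3 and mESCs overlapped, and carry-over was not tested for these small counts.

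Chromogranin A (Chga, ENSMUSG00000021194, chromosome 12, 102520484 to 102531300), the founding member of the family, had 99.02 CPM in N2a (94.5 to 103.7). It had 5.76 CPM in mESCs (4.50 to 7.27) and 0.684 CPM in NIH/3T3 (0.295 to 1.35). All 3 levels were apart by their intervals, with N2a 17.2 times mESCs and mESCs 8.43 times NIH/3T3. The level in NIH/3T3 rests on 8 UMIs, and carry-over between lines was not tested. By BC1 sequence, N2a ran from 71.3 to 135.2 CPM, mESCs from 0 to 14.7 and NIH/3T3 from 0 to 3.16, so the latter lines overlapped. NIH/3T3 was at least 4-fold below both other lines for Chga, as was found for 3.61% of all genes. In mESCs the 71 UMIs of Chga stood beside 14 of Chgb and 5 of Scg3, whereas in N2a 1778 UMIs of Chga stood beside 5700 of Chgb and 4444 of Scg3.

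Secretogranin II (Scg2, ENSMUSG00000050711, chromosome 1, 79412386 to 79417837), the precursor of secretoneurin, was found in the filtered cells of N2a only. It had 551 UMIs there, or 30.7 CPM (28.2 to 33.4), against 0 UMIs in the cells of NIH/3T3 and mESCs. With a floor of 3 counts per library, the level in N2a was at least 119.7-fold higher than in NIH/3T3 and at least 126.0-fold higher than in mESCs. Its spread over the BC1 sequences of N2a was wide, from 8.51 to 55.9 CPM with a median of 28.9.

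Scg5 (ENSMUSG00000023236, chromosome 2, 113606688 to 113660094) encodes 7B2, the chaperone that keeps PC2 inactive until it reaches the granule. N2a had 95.2 CPM (90.8 to 99.9), NIH/3T3 6.92 CPM (5.50 to 8.61) and mESCs 2.11 CPM (1.38 to 3.09), and none of these intervals overlapped. The BC1 sequences of N2a ran from 74.1 to 135.9 CPM, above the 0 to 13.5 CPM of NIH/3T3 and the 0 to 9.91 CPM of mESCs. N2a was 13.8 times NIH/3T3, which in turn was 3.28 times mESCs.

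The partner of 7B2, the convertase PC2 (Pcsk2, ENSMUSG00000027419, chromosome 2, 143387993 to 143659507), was low in every line. N2a had 83 UMIs, or 4.62 CPM (3.68 to 5.73), mESCs 23 UMIs, or 1.87 CPM (1.18 to 2.80), and NIH/3T3 13 UMIs, or 1.11 CPM (0.592 to 1.90). N2a was above both by its interval, but the BC1 sequences of all 3 lines overlapped, and Pcsk2 did not pass the 4-fold limit. Its span holds the antisense genes Pcsk2os1 and Pcsk2os2, and the strand setting of the counting is not given in the sources used here.

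PC1/3 (Pcsk1, ENSMUSG00000021587, chromosome 13, 75237284 to 75284898) was found in mESCs, with 48 UMIs or 3.90 CPM (2.87 to 5.16). In N2a it had 1 UMI, or 0.0557 CPM (0.00141 to 0.310), and in NIH/3T3 0 UMIs. At the floor of 3 counts the level in mESCs was at least 15.2-fold higher than in NIH/3T3. Of the BC1 sequences of mESCs, 9 had no Pcsk1 UMI and the highest reached 19.3 CPM. Both granule convertases were thus at under 5 CPM in N2a.

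The later enzymes followed another order of lines. Carboxypeptidase E (Cpe, ENSMUSG00000037852, chromosome 8, 65045555 to 65146435) had 249.1 CPM in NIH/3T3 (240.1 to 258.3), 80.5 CPM in N2a (76.4 to 84.7) and 18.6 CPM in mESCs (16.3 to 21.2). Its BC1 sequences did not overlap between lines, with 186.3 to 299.6 CPM in NIH/3T3, 39.6 to 108.5 CPM in N2a and 7.25 to 38.9 CPM in mESCs. NIH/3T3 was 3.10 times N2a, which was 4.33 times mESCs. mESCs were at least 4-fold below both other lines for Cpe, as were 2.63% of all genes.

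Pam (ENSMUSG00000026335, chromosome 1, 97722839 to 98023399), the amidating enzyme, had 423.2 CPM in NIH/3T3 (411.4 to 435.1). It had 49.2 CPM in N2a (46.0 to 52.6) and 44.3 CPM in mESCs (40.7 to 48.2), whose intervals overlapped. NIH/3T3 ran from 314.3 to 522.1 CPM over its BC1 sequences, above the 26.3 to 65.6 CPM of N2a and the 20.6 to 81.8 CPM of mESCs. Its level in NIH/3T3 was 8.59 times that in N2a. Its span holds 3 other annotated genes on the same strand and 5 on the opposite strand, whose reads may not be told apart from its own.

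Levels were also divided by gene length, taken as the merged exons of all annotated transcripts, which is not the length of a transcript. Whether UMI counts scale with this length was not tested. Per kilobase of merged exons, the level in N2a was 77.7 CPM for Chgb, 29.3 for Scg3, 22.5 for Cpe, 15.2 for Chga, 12.2 for Scg2, 8.89 for Scg5, 3.64 for Pam, 0.416 for Pcsk2 and 0.00680 for Pcsk1. Chgb was the highest of the 9 on this scale and Pcsk1 the lowest, as they were by CPM. The order between them depended on the scale. By CPM in N2a, Chga (99.02) was above Cpe (80.5) and Scg5 (95.2) was above Scg2 (30.7), the reverse of the order per kilobase.

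The share of cells with a UMI was compared after a random draw of 1000 UMIs from every cell (thinning), since N2a cells were deeper. A UMI of Chgb was then found in 24.5% of N2a cells (22.8% to 26.3%), of Scg3 in 21.8% (20.2% to 23.6%), of Chga in 9.08% (7.95% to 10.3%), of Scg5 in 8.39% (7.30% to 9.597%) and of Scg2 in 3.06% (2.39% to 3.84%). Without thinning the shares were 65.9%, 70.7%, 44.9%, 44.0% and 14.0%. In NIH/3T3 and mESCs the thinned share of Chga, Chgb, Scg2 or Scg3 was at most 0.328%, which was that of Chga in mESCs. At least 1 UMI of any of these 4 genes was found in 46.7% of thinned N2a cells (44.6% to 48.7%), 0.147% of NIH/3T3 cells (0.0304% to 0.430%) and 0.515% of mESCs (0.257% to 0.919%). A UMI of Scg2 was found in 0 of 2037 NIH/3T3 cells and 0 of 2137 mESCs, thinned or not. With a floor of 3 cells this allows up to 0.147% and 0.140% of cells with a UMI, and the exact binomial upper limits were 0.181% and 0.172%. These limits hold for cells with a UMI at this depth, not for cells that express the gene.

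For the trimming and amidating enzymes NIH/3T3 had the highest shares, and for Pam the intervals of N2a and mESCs overlapped. Pam was found in 34.0% of thinned NIH/3T3 cells (31.96% to 36.1%), 4.48% of N2a cells (3.67% to 5.40%) and 4.54% of mESCs (3.70% to 5.51%). Cpe was found in 20.3% of NIH/3T3 cells (18.5% to 22.1%), 6.89% of N2a cells (5.89% to 7.99%) and 1.50% of mESCs (1.03% to 2.11%). For Pcsk1 the thinned share in mESCs was 0.655% (0.359% to 1.10%), with 0 of the N2a and NIH/3T3 cells. Pcsk2 had 0.344% in N2a (0.149% to 0.677%) and 0.374% in mESCs (0.162% to 0.736%), and a difference was not detectable at this depth.

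Within N2a, UMIs of 2 granins were gathered in fewer cells than counting alone would give. Scg2 was found in 14.0% of cells, where a Poisson count at its mean rate and the depths of the same cells gives 19.9%, a ratio of 0.702. Chgb was found in 65.9% of cells, where the Poisson share is 79.1%, a ratio of 0.834. Over the 9173 genes with at least 10 CPM in N2a the median ratio was 0.957 (5th to 95th percentile 0.872 to 0.991), which put Scg2 at percentile 0.392 and Chgb at percentile 2.45. Scg3, Chga and Scg5 lay near the middle, with ratios of 0.969, 0.955 and 0.957, and Cpe and Pam were lower, with 0.908 and 0.901.

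**Figure D2:**
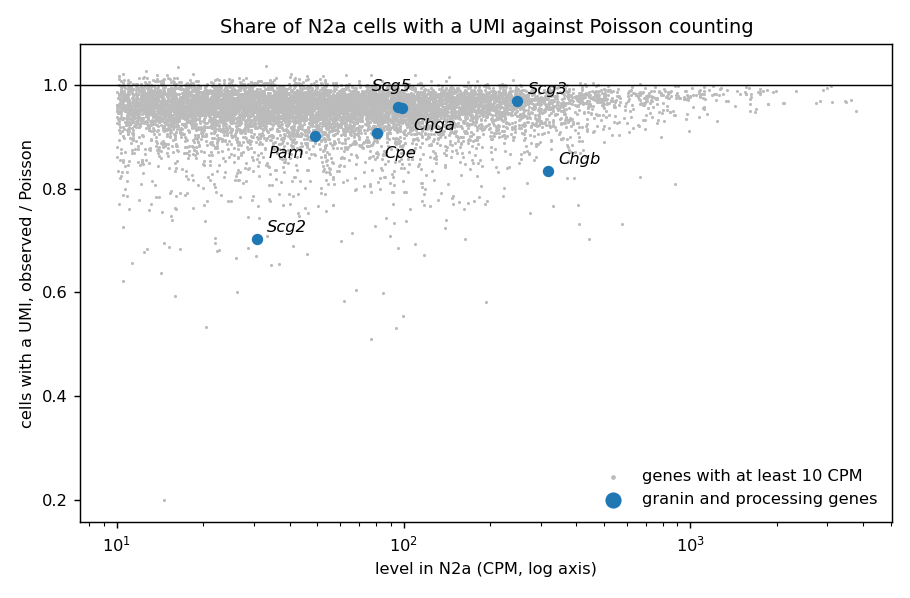
Observed share of N2a cells with a UMI divided by the share under Poisson counting, against the level in CPM on a log axis, for 9173 genes (grey) and the 7 granin and processing genes with at least 10 CPM (blue). Scg2 (0.702) and Chgb (0.834) lie below most genes of like level, and Scg3, Chga and Scg5 lie among them.

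The cells behind these ratios can be counted. For Chgb, 791 N2a cells had no UMI, 451 had 1, 762 had 3 or more and 110 had 10 or more, and the highest cell held 51 UMIs among 28115 in total. For Scg3, 680 cells had no UMI, only 23 had 10 or more, and the highest held 15. For Scg2, 1998 cells had no UMI, 50 had 3 or more, and 90 cells, or 3.87% of all, held 50% of its UMIs. The variance over the mean after thinning was 1.27 for Chgb, 1.14 for Pam and 1.12 for Scg2, against a 95th percentile of 1.13 over all genes, and 0.979 to 1.03 for Chga, Scg3, Scg5 and Cpe. That of Pam fell to 1.00 when cells were thinned to 2000 UMIs, while Chgb had 1.56 and Scg2 1.20.

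**Figure D3:**
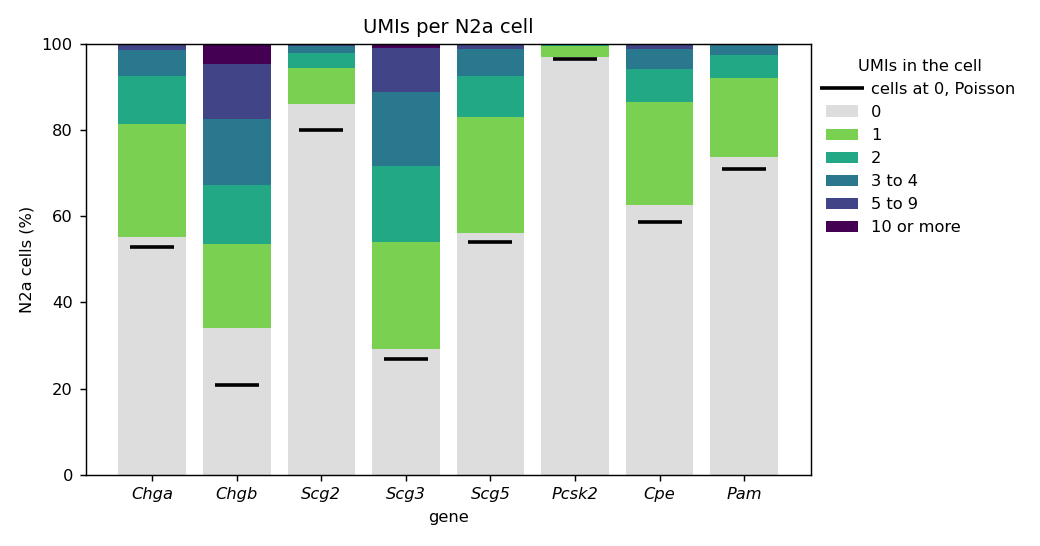
Percent of the 2323 N2a cells with 0, 1, 2, 3 to 4, 5 to 9 or 10 or more UMIs of each gene, with a black line at the percent of cells at 0 under Poisson counting. The grey part passes the black line most for Chgb (791 cells at 0) and Scg2 (1998 cells at 0), and Pcsk1, with 1 UMI, is not drawn.

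Levels were also read by depth and by well. In 4 bins of 580 or 581 N2a cells by total UMIs, with medians of 2202 to 14363 UMIs, Chgb had 294.9 to 341.0 CPM and Scg2 27.4 to 32.5 CPM. All 32 BC1 sequences held cells from the 10% of N2a cells that were highest in Scg2 relative to depth, with 2.86% to 20% of their cells. For Chgb these values were 4.29% to 16.3%, with a median of 9.72%. Median mitochondrial shares were 1.77% in the Scg2-high cells and 2.15% in the rest, and 2.40% and 2.08% for Chgb, and their part in the result was not tested.

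Correlations between the genes from cell to cell were weak in N2a. The 7 genes with at least 10 CPM form 21 pairs, whose counts were adjusted for depth (Pearson residuals) and correlated across the 2323 cells. The median r was 0.0063, against -0.0003 over all pairs of the 9173 genes, with a range of -0.05 for Chgb and Scg2 to 0.09 for Scg5 and Cpe. The 95th percentile over all pairs was 0.05, and 5 of the 21 pairs were above it, namely Scg5 with Cpe (0.09), Chgb with Scg5 (0.08), Chga (0.07), Scg3 (0.07) and Cpe (0.07). These values are small in sparse counts, the points share 1 library, and they are given as a description. Chgb was in 4 of the 5 pairs, and Scg2 and Pam were in none. With counts thinned to 1000 UMIs and log-transformed, only 1 of the 21 pairs was above the percentile and the median r was -0.0117.

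**Figure D4:**
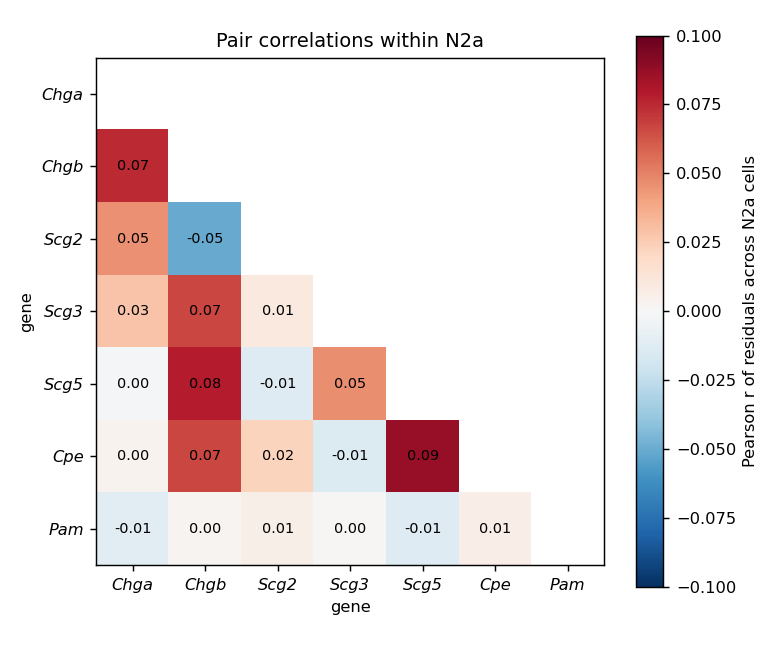
Pearson correlation of depth-adjusted counts across 2323 N2a cells for the 21 pairs of 7 genes, on a color scale from -0.1 to 0.1. The highest value is 0.09, for Scg5 and Cpe, and the lowest is -0.05, for Chgb and Scg2.

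Cells with both transcripts were counted as well. After thinning to 1000 UMIs, Chgb and Scg3 were found together in 148 cells, where the product of their shares gives 124.2, a ratio of 1.19 (1.01 to 1.40, for the counting error of the joint cells). It was the only one of the 19 pairs with at least 5 joint cells by the product of shares whose interval lay above 1, and the median ratio of these pairs was 0.977. Chga with Cpe had the lowest ratio, at 0.482 (0.194 to 0.992), from 7 cells. Without thinning, N2a cells held UMIs of a median of 3 of the 9 genes, 173 cells held none, 4 cells held 8 and no cell held all (0 cells).

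Cells high in Chgb and cells high in Scg2 were then compared with the rest. N2a cells were ranked by the depth-adjusted count of a gene and the top 232 (10%) were set apart, a split made after the values were seen. Within 0.1 residual units of the limit lay 30 cells for Chgb and 17 for Scg2, so these are ranges and not cell types. The Scg2-high cells held as few as 1 Scg2 UMI (median 2), and the Chgb-high cells as few as 2 Chgb UMIs (median 7). Median total UMIs were 7181.5 in the Scg2-high cells and 6017 in the rest, and 6308.5 and 6155 for Chgb. In the Chgb-high cells Scg2 had 20.2 CPM (14.1 to 27.9), against 31.9 CPM (29.2 to 34.7) in the rest. In the Scg2-high cells Chgb had 260.3 CPM (239.0 to 283.0), against 325.1 CPM (316.3 to 334.1). Both pairs of intervals were apart, but they cover Poisson counting only, and both genes varied more than Poisson between cells. After thinning, Chgb and Scg2 were found together in 17 cells, where the product of their shares gives 17.4, a ratio of 0.978 (0.569 to 1.57). The intervals of Scg3 overlapped in both splits, with ratios of 1.10 and 0.978. With the top 465 cells in place of 232, the ratios were 0.800 for Scg2 in Chgb-high cells and 0.799 for Chgb in Scg2-high cells. Cpe was 1.23 times as high in the Chgb-high cells, at 96.9 CPM (83.0 to 112.4) against 78.7 (74.4 to 83.1), where the intervals overlapped narrowly. Pam (1.23 times) and Scg5 (1.18 times) had overlapping intervals as well. Scg2 was not the only gene lower in the Chgb-high cells. Vgf, a granin-like gene outside the set, had 223.9 CPM (202.5 to 247.0) there and 266.8 CPM (258.9 to 274.9) in the rest. In the Scg2-high cells the ratio of Vgf was 1.01.

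Outside the 9 genes, the transcripts most like their sum across N2a cells were Syt1 (r = 0.21), A330076H08Rik (0.16), Chrna3 (0.16), Fgf14 (0.16) and Gap43 (0.15). Syt1 encodes the calcium sensor of vesicle release, Chrna3 a nicotinic receptor subunit of autonomic neurons, and Gap43 a growth cone protein. Syt1 and Chrna3 were also among the genes closest to Chgb, which were Rab27a (0.25), a small GTPase of granule docking, Syt1 (0.24) and Chrna3 (0.24). With thinned, log-transformed counts the r of Chgb with Syt1 fell to 0.07. Rab27a had 43.7 CPM (34.5 to 54.5) in the Chgb-high cells and 14.8 CPM (13.0 to 16.8) in the rest, although it was named for its likeness in the same cells. The genes closest to Scg2 were Samd5 (0.16), Dpysl3 (0.16), a regulator of the neurite cytoskeleton, and Prkg1 (0.15), a cyclic GMP-dependent kinase. For Cpe they were Syt1 (0.15), Gm21798 (0.14) and Myo5c (0.14), and the closest genes of Chga, Scg3, Scg5 and Pam had r of at most 0.11.

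Other genes of the pathway were taken from lists by function. Their counts past the 4-fold limit stand beside 7.63% of all genes tested for mESCs, 5.46% for N2a and 4.79% for NIH/3T3, and most lists are too short to be read against these shares. Of the other granins and inhibitors, Vgf and Pcsk1n were past the 4-fold limit in N2a, 2 of 3 genes. Vgf, a granin-like precursor induced by nerve growth factor, had 262.5 CPM in N2a (255.1 to 270.1), against 1.62 CPM in mESCs and 8.98 CPM in NIH/3T3. Pcsk1n, whose product proSAAS inhibits PC1/3, had 57.9 CPM in N2a (54.5 to 61.6), where its target convertase had 1 UMI. Gnas, whose locus also encodes the granin-like protein NESP55, had 683.0 CPM in N2a and 445.8 CPM in NIH/3T3, but UMIs of its transcripts were counted together.

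Convertases of the constitutive secretory route were listed separately. Of 7 listed genes 6 were tested, and 1 was past the 4-fold limit in mESCs (Pcsk5), with 0 in N2a and 0 in NIH/3T3, and 1 was at least 4-fold below both other lines in NIH/3T3 (Pcsk6). Furin, which cuts precursors in the trans-Golgi network, had 32.9 CPM in N2a (30.3 to 35.6), above mESCs (10.9 CPM) and NIH/3T3 (16.1 CPM). Pcsk6 had 57.7 CPM in N2a and 159.0 CPM in mESCs but 3 UMIs in NIH/3T3, and Mbtps1, the site-1 protease, had 83.1 to 126.8 CPM in the 3 lines.

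Peptide precursors other than the granins, Vgf and Pcsk1n were listed next, and most of those listed were scarce in all lines. Of 32 listed precursor genes, 7 had 0 UMIs in mESCs, 17 in N2a and 20 in NIH/3T3, and only 8 had a mean of at least 1 CPM. In N2a, Cartpt, the precursor of the CART peptides, was the 1 gene past the 4-fold limit, with 10.9 CPM (9.39 to 12.5). Pomc had 3.84 CPM there (2.99 to 4.86). Agrp had 35.6 CPM there, 64.6 in mESCs and 33.2 in NIH/3T3, but 2 annotated genes overlap it on the same strand. Adm in NIH/3T3, at 8.46 CPM, and Trh in mESCs, at 4.30 CPM, were past the limit in those lines.

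**Figure D5:**
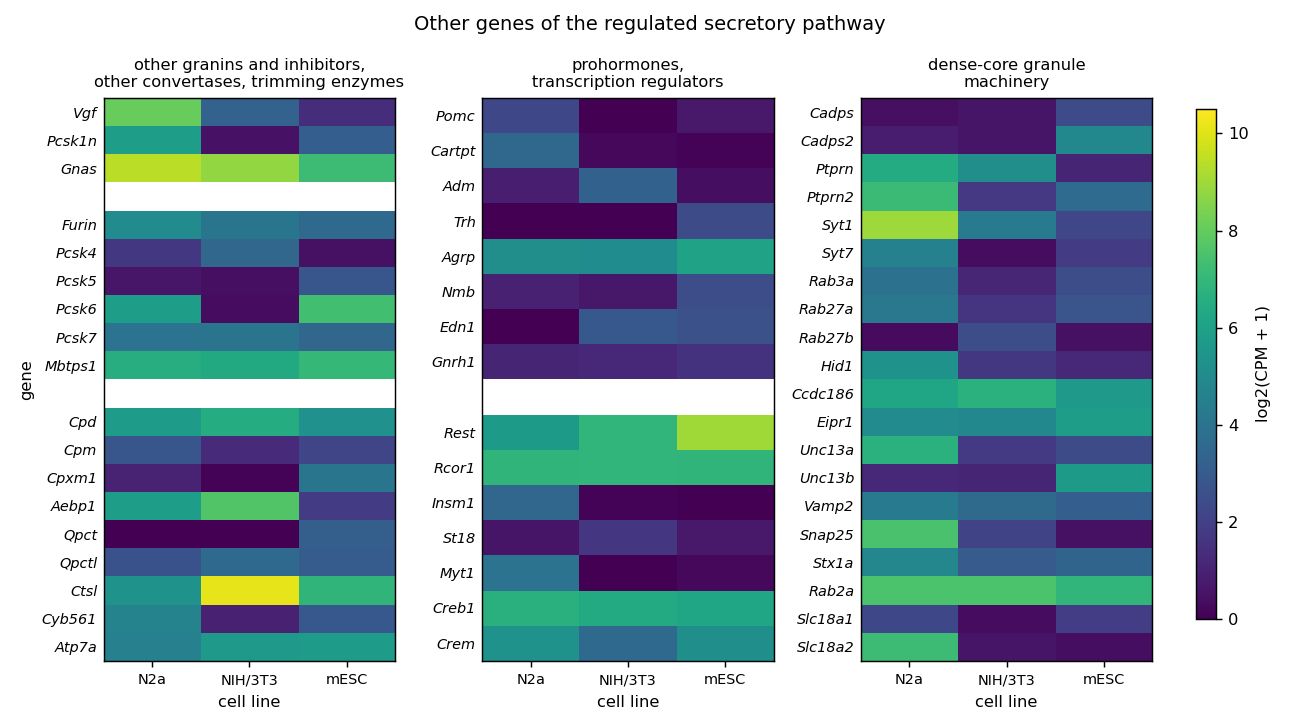
Level as log2(CPM + 1) of the other genes of the pathway with a mean of at least 1 CPM over the lines, by list, in N2a, NIH/3T3 and mESCs. Vgf, Syt1, Snap25 and Slc18a2 are bright in N2a and dark in mESCs, and Rest is brightest in mESCs. In the list of prohormones, which leaves out granins and Vgf, only Agrp is above 30 CPM in any line.

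Genes of dense-core granules and their release were counted next. Of 23 listed genes 20 were tested, and 7 were past the 4-fold limit in N2a, 2 in mESCs and 0 in NIH/3T3, with a median log2 ratio of N2a to the higher other line of 1.36 (-0.38 over all genes). The shares over all genes were 5.46% for N2a, 7.63% for mESCs and 4.79% for NIH/3T3, and the counts in mESCs and NIH/3T3 are not read as differing from these. Those in N2a were Syt1, Snap25, Slc18a2, Ptprn2, Unc13a, Hid1 and Syt7. Syt1 had 499.2 CPM in N2a, Snap25, a SNARE protein, 178.6 CPM, and Slc18a2, the vesicular monoamine transporter, 147.7 CPM, against at most 19.3 CPM in the other lines. Ptprn2, a granule membrane protein, had 139.8 CPM in N2a and 11.6 CPM in mESCs. Cadps2 and Unc13b, which prime vesicles, were past the limit in mESCs, with 28.8 and 51.9 CPM, against 0.724 and 1.34 CPM in N2a. Of the 20 genes tested, 14 were highest in N2a, 4 in mESCs and 2 in NIH/3T3. Rab2a, which acts in granule maturation, had 183.2 CPM in N2a and 182.3 CPM in NIH/3T3, with overlapping intervals.

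Of the enzymes listed beside Cpe and Pam, 9 of 11 were tested. Past the limit were 0 in N2a, 1 in NIH/3T3 (Ctsl) and 2 in mESCs (Cpxm1 and Qpct), and 1 was at least 4-fold below both other lines in mESCs (Aebp1). These counts are too small to be read against the shares over all genes. Ctsl, a protease that can also cut precursors, had 1115 CPM in NIH/3T3 (1096 to 1134) and 41.6 CPM in N2a. Aebp1, a carboxypeptidase-like matrix protein, had 200.6 CPM in NIH/3T3, 56.5 CPM in N2a and 2.60 CPM in mESCs. Cyb561, which supplies the granule with the reducing power that Pam needs, was highest in N2a, with 24.7 CPM (22.5 to 27.1) against 6.49 CPM in mESCs and 0.940 CPM in NIH/3T3, and did not pass the limit.

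Among 12 listed transcription regulators of neuroendocrine genes, 7 were tested. Rest, the repressor that binds the granin genes in cells that are not neuronal, had 510.1 CPM in mESCs (497.6 to 522.9), 118.7 CPM in NIH/3T3 (112.5 to 125.1) and 51.5 CPM in N2a (48.3 to 54.9), past the 4-fold limit in mESCs. Its cofactor Rcor1 lay between 114.6 and 120.4 CPM in the 3 lines, with overlapping intervals. Insm1 and Myt1 were past the limit in N2a, with 9.91 and 15.0 CPM, and Neurod1 had 0 UMIs there. Creb1, which encodes a factor of the motif shown above, had 71.8 CPM in mESCs, 83.8 in NIH/3T3 and 99.5 in N2a. Across N2a cells the r of Rest with the 9 genes ran from -0.06 for Chgb to 0.02 for Scg2.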

How the data were processed

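UMI counts per gene and barcode were deposited by the authors for every possible barcode, without normalization or cell filter, after CapMux demultiplexing by BC1 (or by index for the pooled matrix), TSO trimming with Cutadapt, and STARsolo on GRCm39 with GENCODE M30. The barcode and gene lists (other text columns) were deposited with them. The 3 line matrices were used, with the pooled matrix as an alternative. From the counts, filtered cells were summed per line and given as CPM. The filtered cells held 17955221 UMIs (N2a), 11697865 (NIH/3T3) and 12322098 (mESCs). Residuals used a theta of 100. Doublets were not called. Coordinates of genes are those of GENCODE M39 (GRCm39). The 9 genes, the gene lists and the fold were chosen with earlier results of these data known, and the split by Chgb and Scg2 after their values were seen. Named from the lists were at most the 4 genes highest in N2a, up to 2 highest in each other line, Rest, and, after their values were seen, others where a count was small. Not every gene within these limits was named, and Cpd, Pcsk7 and Crem, for example, were left out. The 5 genes most correlated with the sum of the 9 were looked up as well, with the 3 most correlated with each. The steps were tested on simulated data. Python 3.11.15, numpy 2.4.6, scipy 1.17.1 and pandas 2.3.3 were used.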

Additional observations from a re-analysis of the deposited data

Results flagged for a closer look

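Barcodes outside the cell filter were not used above and also held granin transcripts. Chga, Chgb, Scg2 and Scg3 summed to 628.6 CPM there in N2a (95% exact Poisson interval 599.1 to 659.2), against 694.7 CPM in cells. In NIH/3T3 they summed to 9.96 CPM outside the filter (5.90 to 15.7), from 18 UMIs, against 2.48 CPM in cells (1.66 to 3.56). In mESCs the values were 9.01 CPM (4.93 to 15.1) and 7.30 CPM (5.87 to 8.98), with overlapping intervals. All 3 were above the level that a count of 3 gives in these barcodes, at most 1.93 CPM. Their source was not tested.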

How the results depend on the processing

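The alternatives changed the cell filter, the calling rule, the total, the fold, the pseudocount, the thinning and the correlation. By level 6 of the 9 genes were highest in N2a under every alternative cell set and total, and the same 5 were past the limit in N2a under every cell filter, fold, pseudocount and level filter tried. Fold calls were not repeated with another total, over all barcodes or with means over cells. With a fold of 2, 2 genes were past it in NIH/3T3 (Cpe joined Pam). With a fold of 8 or a pseudocount of 5 CPM, 0 were past it in mESCs, where Pcsk1 dropped out. Over all genes, 830 were past the 4-fold limit in N2a, against 1712 at a fold of 2, 412 at a fold of 8 and 442 with the larger pseudocount. For NIH/3T3 these counts were 728, 1550, 411 and 430, and for mESCs 1160, 2029, 622 and 560. By thinned share 5 of the 9 genes were highest in N2a, and 6 without thinning, since Pcsk2 joined. The median correlation was 0.0799 with Spearman's coefficient, where the 95th percentile of all pairs was 0.104, and with counts thinned to 1000 UMIs 1 of the 21 pairs was above the 95th percentile (there 0.0376) and the median changed sign, to -0.0117. The cause was not tested. Of the values of single genes and pairs, 453 stayed within the error of the reported value under the alternatives and 96 did not. For the counts and medians that summarise a comparison, 49 were taken as unchanged and 5 were not, and the 5 are among those given here. A count was taken as unchanged within 1.5 times the reported value, and a median within its error. A count could stay while its genes changed. The genes with a variance over the mean above the 95th percentile went from Chgb and Pam to Chgb and Scg2 when cells were thinned to 2000 UMIs. Removing mitochondrial and ribosomal genes from the total raised levels 1.11 to 1.14 times. The correlation of Chgb with Syt1 ran from 0.07 to 0.26. Depth limits Pcsk1 and Pcsk2, with at most 83 UMIs in a line. No paired analysis was possible because each line had 1 library.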

Other observations

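Correlations with other cell properties were computed within N2a in the same depth-adjusted way and are given as descriptions over 2323 cells. With the summed G2/M list, r was -0.09 for Chgb and 0.05 for Scg5, and with the S phase list 0.07 for Chga and -0.07 for Cpe. With the dense-core granule list Chgb had r = 0.19, and the other genes had at most 0.05. That list holds Rab27a and Syt1, already named as the genes closest to Chgb in the same cells. The value for Chgb is therefore not a separate result, and one without these genes is not given. With the mitochondrial percent Chgb had r = 0.10 and Scg2 -0.07.

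Cpe and Pam, which were both highest in NIH/3T3, had r = 0.05 across the 2037 NIH/3T3 cells. In mESCs, 2 cells held 5 or more UMIs of Cpe, with 8 in the highest, although only 8.89% of cells held any.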
